A study of Mus musculus with 28 samples.

Results

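The comparison described here set bone marrow-derived dendritic cells given lipopolysaccharide (LPS) for 9 h against mock-stimulated cells of the same hour. It used 4 of the 28 samples of the series, chosen by treatment and time, and covered all 3147 genes of the deposited RNA table. The 2 LPS libraries came from cells given LPS of Escherichia coli K12 at 100 ng per ml, and the 2 mock libraries from cells left without stimulation for the same 9 h. All cells were grown from the marrow of female C57BL/6J mice in GM-CSF, a growth factor that yields dendritic cells together with macrophages and some granulocytes. In both arms the culture medium was changed when stimulation began, so that newly made proteins could be labelled with isotopes. Whether the replicates were separate cultures is not stated in the labels. The p-values therefore reflect library-to-library spread alone, and that spread may be technical.

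LPS, from the outer membrane of Gram-negative bacteria, is sensed by Tlr4. One arm of Tlr4 signalling runs through Myd88 to NF-kB and switches on cytokine genes, and another runs through Trif and Irf3 to type I interferon. Secreted interferon then acts back on the cells through transcription factors that bind the interferon-stimulated response element (ISRE) in the promoters of antiviral genes. In dendritic cells the response is known for the shift of an antigen-sampling cell to one that presents antigen and costimulates T cells.

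Values were in TPM, a unit that is scaled for gene length and adds up to 1000000 in each library over the listed genes, so sequencing depth is unknown and a rise of some genes lowers the share left to the others. Log2 fold changes are LPS minus mock on the log2(TPM + 1) scale with their standard error (SE, n = 2 libraries per group), on which folds of weakly expressed genes come out too small. A gene was called at an adjusted p under 0.05 over all 3147 genes. The 2 LPS libraries of 9 h were the least alike of the 13 groups. They had 664 genes more than 2-fold apart, against 115 in the mock pair and 41 to 664 over all groups. The SE and p-values rest on a spread pooled over all 13 groups, so they do not show this wider spread in full. Pearson's r across genes was 0.930 between the LPS replicates and 0.970 between the mock replicates. LPS and mock libraries gave 0.813 to 0.858.

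LPS shifted a large part of the measured transcripts. At 9 h 1262 genes were called (40.1% of those tested), 318 of them higher (10.1%) and 944 lower (30%). The LPS and mock libraries did not overlap for 318 of the 318 and 942 of the 944. Over all genes, called or not, they lay apart for 491 higher (15.6%) and 1507 lower (47.9%). A gap between the pairs is therefore common and adds little to a call. The genes called higher held 25.9% and 23.5% of all TPM in the LPS libraries, against 5.88% and 5.69% in the mock libraries. The genes called lower held 18.7% and 18.6% in LPS cells, against 33.1% and 32.6% in mock cells. On the log2(TPM + 1) scale rises were steeper than falls: 27 genes rose at least 16-fold and 0 fell that far, while 105 rose and 97 fell at least 4-fold. The 1 TPM added holds down changes that reach low values. With 0.1 TPM added instead, Endog and Hist1h1b were at -5.00 and -4.63, past 16-fold. Rises from low mock values grew as well, the row IIGP;Iigp1 being at 8.04.

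The number of falls depended on the scale. The median log2 fold change of all genes was -0.44 as deposited, -0.02 after rescaling the columns by their median ratio and -0.13 after quantile normalization. Rescaling left 508 genes higher (16.1%) and 404 lower (12.8%), and quantile normalization 417 higher (13.3%) and 518 lower (16.5%). All 318 rises were still called after rescaling, whereas 540 of the 944 falls were not, and 0 called genes changed direction. Counts after both scalings are therefore given beside each gene group below, in the same order as the counts before them. They are to be read beside these shares over all genes, and the counts as deposited beside 10.1% higher and 30% lower. A call is described as holding throughout when it stayed past the threshold in the same direction after both rescalings and in each of the 4 fits without 1 library of 9 h. That was so for 204 of the rises and 327 of the falls. The fit to the libraries of 9 h alone is not part of this rule, and 32 of 143 named genes lost their call in it.

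**Figure D1:**
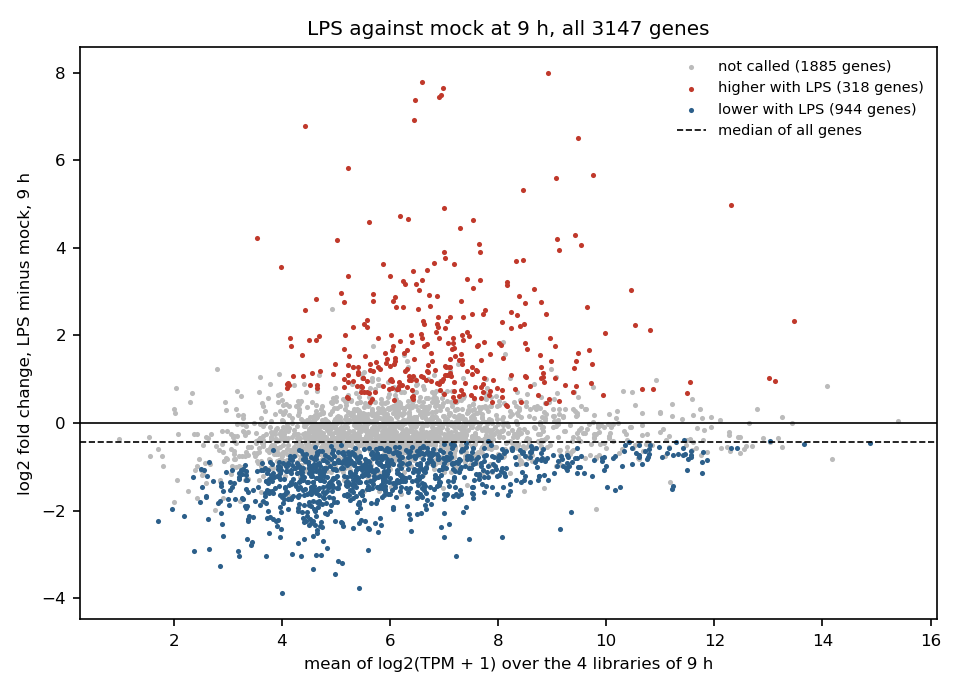
Log2 fold change of LPS over mock at 9 h (vertical axis) against the mean of log2(TPM + 1) over the 4 libraries (horizontal axis), with 1 point per gene. Red points were called higher and blue points lower, and the dashed line marks the median of all genes at -0.44; rises reach far higher than falls reach down. Ifi205, listed at 0 TPM in both mock libraries, is not drawn.

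The interferon response made up most of the largest rises. All 40 measured genes of the type I interferon list rose, with a median log2 fold change of 3.28 against -0.44 over all genes, and all 40 were called after rescaling and after quantile normalization. The median was 3.38 from the replicates numbered 1 and 3.22 from those numbered 2. The calls held throughout for 38 of the 40, the exceptions being Eif2ak2 and Lgals3bp.

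The promoters of 4 of these rising genes are shown because they carry the ISRE core, spelled GAAANNGAAA on either strand, which is printed in capitals. Each window runs from 250 bases before to 50 bases after the gene's start in RefSeq on GRCm38.p6, a later build than the mm9 of the deposited values. The windows are chr12:26456403-26456702 (minus strand) for Rsad2, chr19:34640639-34640938 (plus strand) for Ifit1, chr4:156200769-156201068 (minus strand) for Isg15 and chr3:142620413-142620712 (plus strand) for Gbp2.
Rsad2: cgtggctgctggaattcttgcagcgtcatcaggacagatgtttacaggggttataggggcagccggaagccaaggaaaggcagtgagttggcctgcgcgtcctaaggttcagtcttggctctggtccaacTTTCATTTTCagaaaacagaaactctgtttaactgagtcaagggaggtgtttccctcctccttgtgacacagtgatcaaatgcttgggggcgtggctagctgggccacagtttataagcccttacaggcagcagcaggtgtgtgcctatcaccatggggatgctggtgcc
Ifit1: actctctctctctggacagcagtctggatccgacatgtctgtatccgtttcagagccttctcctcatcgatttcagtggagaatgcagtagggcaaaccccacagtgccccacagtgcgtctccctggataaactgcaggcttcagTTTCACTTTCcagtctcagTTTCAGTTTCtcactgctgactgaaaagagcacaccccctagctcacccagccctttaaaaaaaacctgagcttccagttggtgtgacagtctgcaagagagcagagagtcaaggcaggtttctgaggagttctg
Isg15: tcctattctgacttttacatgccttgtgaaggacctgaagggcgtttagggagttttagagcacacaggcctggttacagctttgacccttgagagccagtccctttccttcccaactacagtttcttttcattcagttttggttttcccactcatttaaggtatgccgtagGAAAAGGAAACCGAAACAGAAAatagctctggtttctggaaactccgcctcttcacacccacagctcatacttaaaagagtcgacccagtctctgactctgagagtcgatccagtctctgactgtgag
Gbp2: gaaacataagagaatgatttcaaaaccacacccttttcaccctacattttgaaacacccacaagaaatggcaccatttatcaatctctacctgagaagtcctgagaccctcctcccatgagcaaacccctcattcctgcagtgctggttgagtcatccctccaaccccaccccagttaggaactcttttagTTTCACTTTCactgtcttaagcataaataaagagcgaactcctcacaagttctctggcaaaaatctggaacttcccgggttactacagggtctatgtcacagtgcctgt

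The ISRE core stood in the windows of 40 of the 262 rising genes that could be matched by name (15.3%), of 17 of 798 falling genes (2.13%) and of 66 of 1537 genes not called (4.29%). These are shares of genes, some of which have several windows. Counted by window, the core was in 12.9%, 1.78% and 3.42% of the windows of these sets. It was found in 1131 of all 32851 promoter windows of that length (3.44%). Of the interferon list it was in 18 of 35 matched genes (51.4%), and of the interferon-inducible GTPases in 6 of 7 (85.7%). The core was written once in the Rsad2 and Gbp2 windows, in 2 places in that of Ifit1, and in 3 overlapping places in that of Isg15. The windows of Cmpk2 and Oasl1 did not have these letters. An NF-kB spelling, GGGNNTTTCC on either strand, was in 8 of the 262 rising genes (3.05%), 13 of the 798 falling genes (1.63%) and 27 of the 1537 genes not called (1.76%). Counted by window, it was in 3.68%, 1.36% and 1.42% of these sets, and in 535 of all windows (1.63%). A match is a description of the letters and not evidence of binding.

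Among antiviral effectors, Rsad2, which encodes viperin, stood at 6077 and 9959 TPM in the LPS libraries, against 13.2 and 64.7 TPM in the mock libraries, a log2 fold change of 7.99 ± 0.55. The size rested on the mock pair, being 6.89 without mock replicate 1 and 9.10 without mock replicate 2. Cmpk2, the neighbouring gene that encodes a mitochondrial nucleotide kinase, had 2097 and 1521 TPM with LPS, against 8.71 and 7.3 TPM with mock (7.64 ± 0.48). In both genes the groups lay far apart. Isg15, a ubiquitin-like protein that is attached to other proteins, stood at 6757 and 6829 TPM in LPS cells, against 59.97 and 91.4 TPM in mock cells, a log2 fold change of 6.50 ± 0.33. Its activating enzyme, listed as AK157941;Uba7;Ube1l, and its conjugating enzyme Ube2l6 rose by 3.63 ± 0.33 and 3.05 ± 0.33 on the log2 scale.

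The Ifit proteins bind viral RNA that lacks the marks of host RNA. Ifit1 had 1575 and 1598 TPM in LPS cells, against 5.01 and 12.7 TPM in mock cells, a log2 fold change of 7.45 ± 0.39. Ifit2 had 1683 and 1623 TPM with LPS, against 4.97 and 13.2 TPM with mock (7.49 ± 0.33). For Ifit3 the values were 1186 and 775.8 TPM with LPS, against 4.05 and 11.6 TPM with mock (6.91 ± 0.67). In all 3 genes the mock pair differed more in ratio than the LPS pair. Without mock replicate 1 their log2 fold changes were 6.86, 6.86 and 6.25 for Ifit1, Ifit2 and Ifit3, and without mock replicate 2 they were 8.04, 8.12 and 7.57. At a pseudocount of 5 Ifit3 was at 6.30.

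Oasl1, a relative of the oligoadenylate synthetases, had 1649 and 1228 TPM with LPS, against 4.22 and 7.03 TPM with mock, a log2 fold change of 7.78 ± 0.50 that became 7.08 at a pseudocount of 5. The synthetase genes proper make the second messenger that activates RNase L. Oas3 rose by 4.66 ± 0.28 and the row Oas1g;Oas1a, whose near-identical members may share reads, by 3.27 ± 0.45. Cytosolic RNA sensors rose too. Ifih1, which encodes Mda5, had 284.5 and 196.9 TPM in LPS cells, against 6.84 and 11.6 TPM in mock cells (4.58 ± 0.28), and Ddx58, which encodes Rig-I, had 228 and 237.7 TPM against 25.8 and 24.05 TPM (3.17 ± 0.20). The row Dhx58;D11lgp2, the third member of that family, rose by 3.36 ± 0.29. The signal transducer Stat2, which carries the interferon signal itself, had 546.3 and 516.3 TPM in LPS cells, against 52.3 and 55.4 TPM in mock cells (3.28 ± 0.24, adjusted p = 3e-08).

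The restriction factors Ifitm3, which blocks viral entry, and Bst2, which tethers budding virus, rose by 3.96 ± 0.77 and 3.03 ± 0.34. Ifitm3 differed between the LPS libraries, at 3362 and 1447 TPM, against 133 and 148.7 TPM in the mock libraries, and its log2 fold change ranged from 3.35 to 4.57 without 1 of the LPS libraries. Of the p200 family, DNA-binding proteins with members whose reads may be shared, Ifi205 was listed at 1273 and 2450 TPM in LPS cells and at 0 and 0 TPM in mock cells, so no fold is given. Mndal of the same family had 1350 and 4039 TPM with LPS, against 83.5 and 193.6 TPM with mock (4.19 ± 0.67), and ranged from 3.40 to 4.98 without 1 of the 4 libraries. At the low end of the list were Adar, which edits double-stranded RNA, at 1.94 ± 0.30, and Eif2ak2, the kinase PKR, at 1.94 ± 0.46. Eif2ak2 lost its call without LPS replicate 2 (1.29, adjusted p = 0.057) and was 2.60 without LPS replicate 1. Lgals3bp (1.84 ± 0.56) lost it without LPS replicate 1 (1.16, adjusted p = 0.17) or mock replicate 2 (adjusted p = 0.11), and was 2.52 without LPS replicate 2.

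All 8 measured interferon-inducible GTPases, which attack the vacuoles of intracellular microbes, rose and held throughout, with a median of 4.18, and all 8 were called under both scalings. Gbp2 had 3376 and 2719 TPM in LPS cells, against 143 and 166.4 TPM in mock cells, a log2 fold change of 4.29 ± 0.26. The row IIGP;Iigp1 had 187.1 and 267.1 TPM with LPS, against 0.163 and 2.64 TPM with mock (6.77 ± 0.56). Mock was near 0 here, and the value became 8.04 and 5.19 at pseudocounts of 0.1 and 5, 5.95 without mock replicate 1 and 7.59 without mock replicate 2. Irgm1, which keeps other GTPases off the host's own membranes, rose by 3.77 ± 0.28 and Gbp3 by 4.08 ± 0.28. The smallest of the 8 were Igtp at 2.96 ± 0.52 and Irgm2 at 2.84 ± 0.49.

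**Figure D2:**
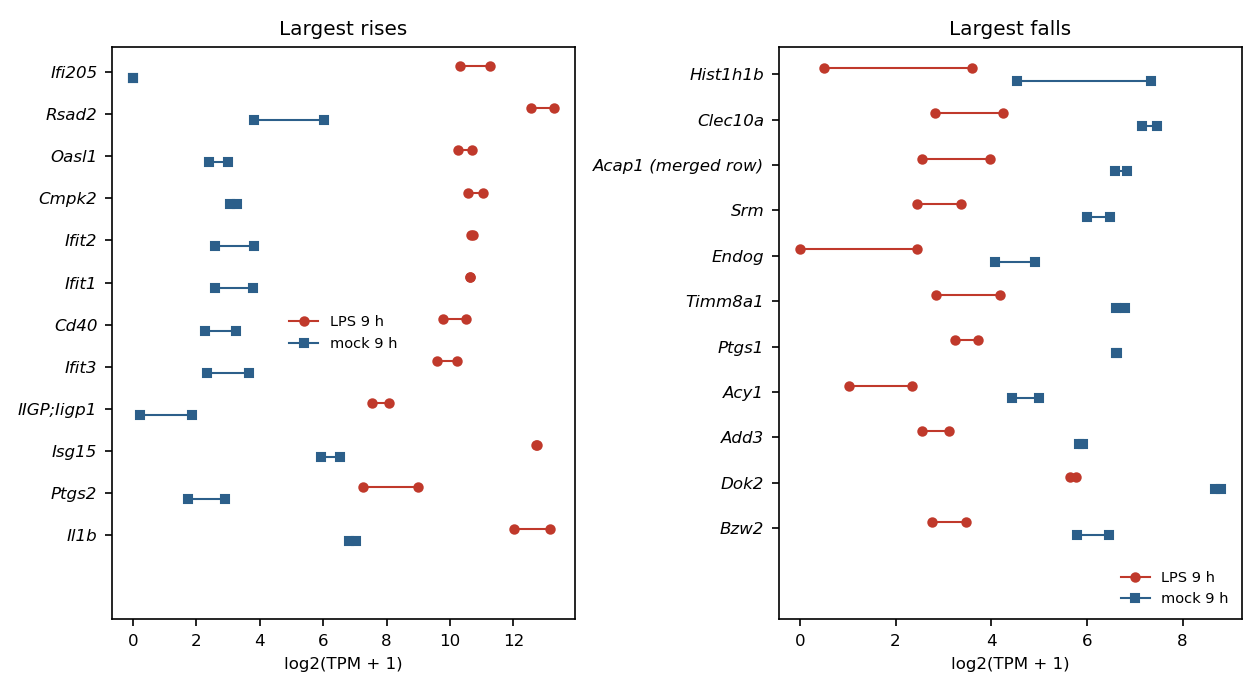
Values of the 12 largest rises (left) and 11 of the largest falls (right) in each library of 9 h on the log2(TPM + 1) scale. Red circles are the LPS libraries and blue squares below them the mock libraries, with each pair joined by a line. Only called genes whose pairs do not overlap could be drawn, and Hist1h1b has the widest pairs.

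The cytokine list was short in this table, with 6 measured genes, of which 4 rose, 0 fell and 4 held throughout (4 and 0 after rescaling, 4 and 1 after quantile normalization). Il1b, the fever-inducing interleukin 1 beta, had 9170 and 4141 TPM with LPS, against 130.2 and 111.1 TPM with mock, a log2 fold change of 5.67 ± 0.60. Il1a had 4288 and 1173 TPM with LPS, against 62.5 and 48.2 TPM with mock (5.33 ± 0.66). Both were far above mock in each library but higher in LPS replicate 1 than in replicate 2, and Il1a was 4.39 without LPS replicate 1 and 6.26 without LPS replicate 2. Their antagonist Il1rn rose by 2.65 ± 0.50. Ccl5, a chemokine that draws T cells, had the largest gain in TPM of any gene, at 39678 and 20330 TPM in LPS cells, against 1034 and 787.6 TPM in mock cells (4.97 ± 0.40, adjusted p = 6e-08). Ccl6, a chemokine of resting myeloid cells, had 9858 and 6502 TPM with LPS, against 12622 and 10955 TPM with mock, and was not called (-0.55 ± 0.24, adjusted p = 0.081). It was called lower after quantile normalization (-0.76, adjusted p = 0.049) and without LPS replicate 1 (-0.85, adjusted p = 0.025).

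Enzymes of prostaglandin and leukotriene metabolism moved in opposite directions, with 2 of 13 higher and 8 lower as deposited. After rescaling 3 were higher and 6 lower, and after quantile normalization 2 were higher and 6 lower. Of the calls 2 rises and 5 falls held throughout. The list is not limited to synthesis, and the falls as deposited included the reductases Cbr1, Ptgr1 and Ptgr2. Ptgs2, the inducible cyclooxygenase, had 513.1 and 152.4 TPM in LPS cells, against 6.46 and 2.33 TPM in mock cells, a log2 fold change of 5.82 ± 1.05. It was 4.94 without LPS replicate 1, 6.69 without LPS replicate 2, 5.23 without mock replicate 2 and 4.96 at a pseudocount of 5. Ptgs1, the constitutive cyclooxygenase, had 8.44 and 12.2 TPM with LPS, against 96.3 and 97.6 TPM with mock (-3.14 ± 0.23, adjusted p = 2e-08). The cyclooxygenase transcripts thus stood in opposite order in the arms, with Ptgs2 above Ptgs1 in each LPS library and Ptgs1 above Ptgs2 in each mock library. Pla2g4a, the phospholipase that frees arachidonic acid, rose by 1.13 ± 0.23. The leukotriene enzymes fell: Alox5 (2.1 and 4.76 TPM with LPS, against 30.8 and 23.5 TPM with mock, -2.72 ± 0.42), its helper Alox5ap (-2.04 ± 0.34) and Lta4h (-2.65 ± 0.45). The thromboxane synthase Tbxas1 was lower by -1.76 ± 0.42. Lta4h ranged from -3.50 to -1.81 without 1 of the LPS libraries, and Alox5 was at -1.88 after quantile normalization and -1.94 at a pseudocount of 5.

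Of 22 genes of NF-kB and Toll-like receptor signalling, 9 rose and 1 fell (13 and 0 after rescaling and after quantile normalization), with a median of 0.84, and 6 rises held throughout. The NF-kB subunits Nfkb1 and Nfkb2 rose by 1.48 ± 0.26 and 1.71 ± 0.35, with Nfkb1 at 504 and 413.2 TPM in LPS cells, against 181.5 and 145.7 TPM in mock cells. Relb rose less, by 0.91 ± 0.17. Rela, the main activating subunit, had 104.9 and 77.7 TPM with LPS, against 86.1 and 76.5 TPM with mock, and was not called (0.15 ± 0.32, adjusted p = 0.74). Rel lay above mock in both LPS libraries (49.1 and 179.3 TPM, against 19.5 and 36.9 TPM) but missed the threshold (adjusted p = 0.054) and passed it after rescaling (adjusted p = 0.029), after quantile normalization (adjusted p = 0.035) and without LPS replicate 1 (2.69, adjusted p = 0.015). Ikbke and its adaptor Tank, which act upstream of Irf3, rose by 1.70 ± 0.21 and 1.83 ± 0.35, and the RNA receptor Tlr7 by 1.90 ± 0.44. Cd14, the co-receptor for LPS, had 725.5 and 322.1 TPM with LPS, against 252.3 and 104.7 TPM with mock, without overlap. Replicate 1 was the higher library in both arms, and the gene was not called (1.57 ± 0.84, adjusted p = 0.15), with 0.94 to 2.20 without 1 library. Irak4, a kinase next to Myd88, was the 1 fall (-0.72 ± 0.18) and was not called after rescaling (adjusted p = 0.23), after quantile normalization (adjusted p = 0.53) or without mock replicate 1 (adjusted p = 0.074).

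Genes of dendritic cell maturation rose in 9 of 13 cases and fell in 0 (10 and 0 after rescaling, 9 and 0 after quantile normalization). The median was 1.99, and 8 rises held throughout. Not called as deposited were Cd44 (-0.37), Cd48 (-0.25), Irf4 (0.01) and the row H1f0;Icam1 (0.22). That row was called higher after rescaling. Cd40, the receptor through which T cells license dendritic cells, had 1458 and 881.6 TPM in LPS cells, against 3.87 and 8.58 TPM in mock cells, a log2 fold change of 7.38 ± 0.42 that became 6.70 at a pseudocount of 5. Cd274, the inhibitory ligand PD-L1, had 975.5 and 891.6 TPM with LPS, against 142.9 and 132 TPM with mock (2.75 ± 0.22). The row Nup62-il4i1;Il4i1;U89428, named in part for an amino acid oxidase of activated myeloid cells, rose by 3.26 ± 0.30. Stat5a, which signals from the GM-CSF receptor, rose by 2.60 ± 0.30. Marcksl1, an actin-binding protein, rose by 2.50 ± 0.30. Fscn1, the actin bundler of mature dendritic cells, rose by 1.99 ± 0.60 but was not called without LPS replicate 1 (1.75, adjusted p = 0.08) or mock replicate 2 (1.23, adjusted p = 0.18), and was 2.74 without mock replicate 1.

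Of 13 genes of MHC class I loading 9 rose and 0 fell (9 and 0 after rescaling, 9 and 1 after quantile normalization), and the 9 held throughout. In the fit to the libraries of 9 h alone Tap2, Psmb8 and the row with B2m were not called (adjusted p of 0.051, 0.072 and 0.053). The peptide transporter subunits Tap1 and Tap2 rose by 2.59 ± 0.15 and 1.45 ± 0.22, Tap1 having 526.6 and 538.6 TPM in LPS cells, against 79.7 and 96.3 TPM in mock cells. Tapbp, which bridges the transporter to class I, rose by 2.06 ± 0.23. The immunoproteasome subunits Psmb8, Psmb9 and Psmb10 rose by 1.14 ± 0.24, 1.82 ± 0.27 and 1.69 ± 0.18, and the activator subunits Psme1 and Psme2 by 1.41 ± 0.19 and 2.13 ± 0.42. Psme2 was 1.50 without LPS replicate 2 and 2.76 without LPS replicate 1. The light chain, in the row BC002288;B2m, had 12189 and 12846 TPM with LPS, against 6230 and 6587 TPM with mock (0.97 ± 0.16). Of 34 constitutive proteasome subunits, 2 rose and 2 fell (7 and 0 after rescaling, 2 and 0 after quantile normalization), and 0 held throughout. Of the 7 genes of class II presentation 0 rose and 1 fell (1 and 0 after rescaling, 0 and 1 after quantile normalization). H2-Aa had 4300 and 3075 TPM with LPS, against 3466 and 3286 TPM with mock, and Cd74, the invariant chain, 11844 and 5315 TPM against 8326 and 4856 TPM, and neither was called. The fall was the protease Lgmn (-0.61 ± 0.19), which was not called after rescaling (adjusted p = 0.55), without LPS replicate 1 (-0.35, adjusted p = 0.19) or without mock replicate 2 (adjusted p = 0.097). The rise after rescaling was the protease Ctsl (0.72, adjusted p = 0.032), which was at 0.29 ± 0.26 as deposited (adjusted p = 0.39).

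Lectin, scavenger and Fc receptors, with which immature cells take up antigen, included 1 rise and 5 falls among 13 genes. After rescaling 3 were higher and 2 lower, and after quantile normalization 1 was higher and 3 lower. The falls were near the shares over all genes, 30% as deposited and 12.8% after rescaling. They therefore show no fall of the receptors as a class. Clec10a, a lectin for galactose-type sugars, had 6.06 and 18 TPM in LPS cells, against 141 and 174.8 TPM in mock cells, a log2 fold change of -3.77 ± 0.36. Mrc1, the mannose receptor, had 40.6 and 68.9 TPM with LPS, against 233 and 334.7 TPM with mock (-2.38 ± 0.27). These 2 falls held throughout, as did the rise of Fcgr1, the high-affinity IgG receptor, at 367.2 and 203.7 TPM with LPS, against 51.5 and 49.1 TPM with mock (2.42 ± 0.41). Clec4n (-1.51 ± 0.46), Fcgr2b (-1.30 ± 0.50) and Mgl2 (-1.13 ± 0.34) fell as deposited, but were not called after rescaling (adjusted p of 0.082, 0.19 and 0.12) or without LPS replicate 2 (0.14, 0.31 and 0.15). Clec10a was -3.06 without LPS replicate 1 and -4.48 without LPS replicate 2.

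**Figure D3:**
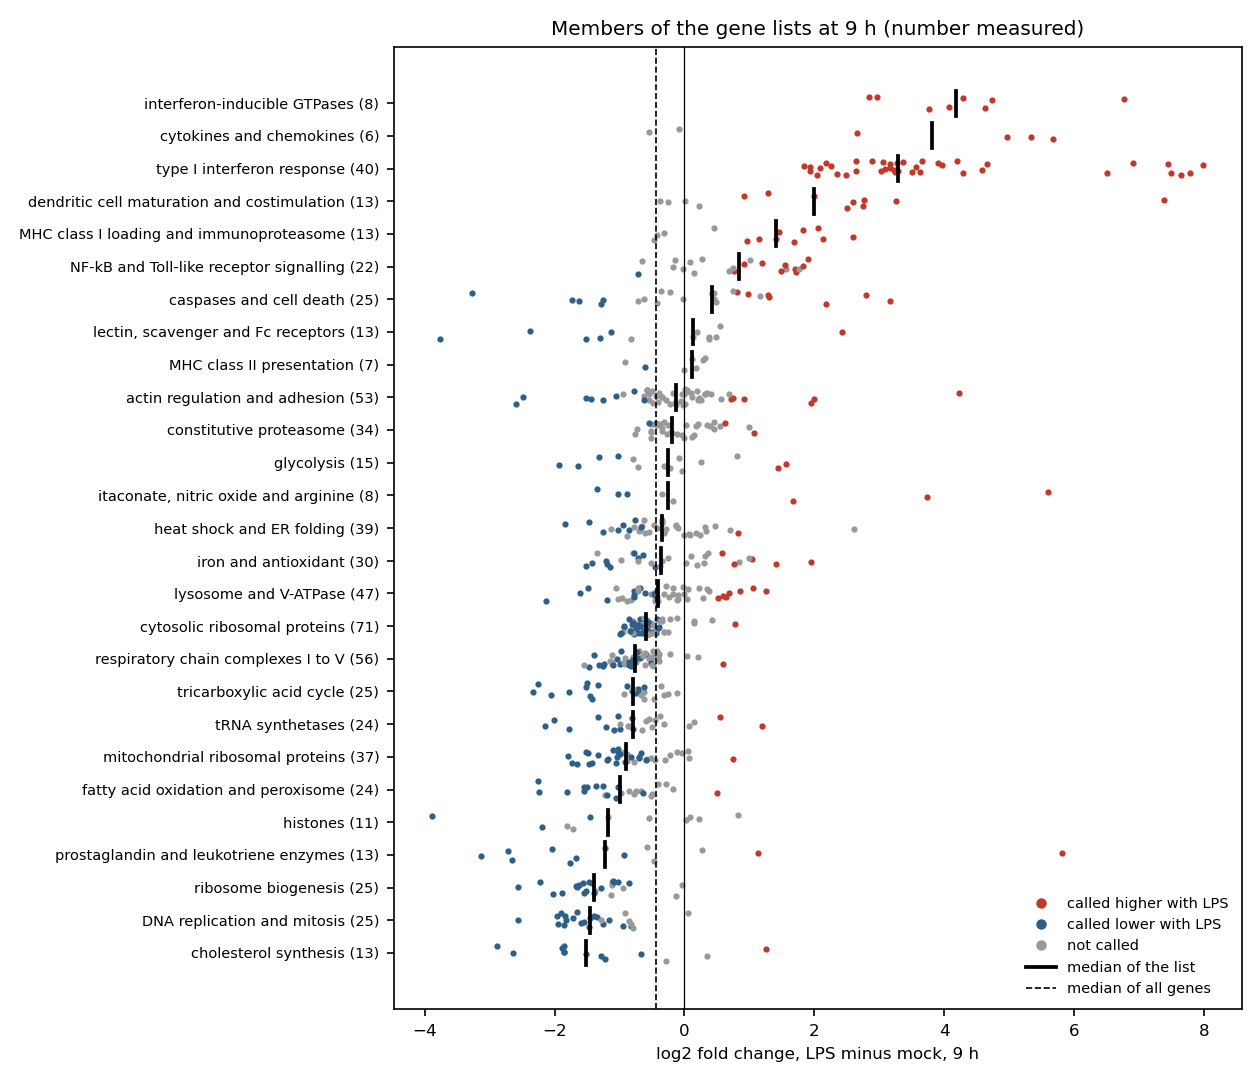
Log2 fold change at 9 h (horizontal axis) of the measured members of each gene list, with 1 point per gene, red where called higher, blue where called lower and grey where not called. Black bars are list medians and the dashed line the median of all genes; the lists run from interferon-inducible GTPases at 4.18 to cholesterol synthesis at -1.51. Ifi205 is not drawn.

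Among genes of itaconate, nitric oxide and arginine metabolism, 3 of 8 rose and held throughout and 3 fell (3 and 1 after rescaling and after quantile normalization). Irg1, the enzyme that makes itaconate from a Krebs cycle intermediate, had 5170 and 2722 TPM in LPS cells, against 83.5 and 70.6 TPM in mock cells, a log2 fold change of 5.59 ± 0.45. Slc7a2, an arginine importer, had 1351 and 1223 TPM with LPS, against 83.1 and 111.5 TPM with mock (3.73 ± 0.26). Gch1, the first enzyme of tetrahydrobiopterin synthesis, rose by 1.67 ± 0.29, while Spr, the last enzyme of that route, fell by 1.35 on the log2 scale (SE 0.26).

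Genes of oxidative metabolism were lower in many cases as deposited, where 30% of all genes were lower, and in fewer after rescaling, where 12.8% of all genes were. Of 25 genes of the tricarboxylic acid cycle and of enzymes beside it 15 fell and 0 rose (5 and 0 after rescaling, 6 and 0 after quantile normalization). The median was -0.79, and 3 falls held throughout. The falls as deposited included Aco1, Idh1, Mdh1, Me2, Dlat, Pdha1 and Pdhb, whose enzymes stand beside the cycle. Idh3a had 9.49 and 10.3 TPM with LPS, against 64.5 and 44.9 TPM with mock (-2.33 ± 0.36), Fh1, fumarase, 19.8 and 10.8 TPM against 91.1 and 59.9 TPM (-2.26 ± 0.43), and cytosolic Idh1 71.7 and 52.7 TPM against 281 and 237.1 TPM (-2.05 ± 0.18). None of the 3 pairs overlapped, and Idh3a was at -1.71 after quantile normalization. Of 56 respiratory chain genes 24 fell and 1, Cycs, rose. After rescaling 7 were lower and 1 higher, close to the 12.8% lower over all genes, and after quantile normalization 21 were lower and 1 higher, with 16.5% lower over all genes. Of the falls 7 held throughout, among them the complex I genes Ndufs7 (-1.47 ± 0.26), Ndufa8 (-1.39 ± 0.23) and Ndufb10 (-1.31 ± 0.27). Mitochondrial ribosomal proteins fell in 23 of 37 cases and rose in 1 (7 and 1 after rescaling, 6 and 1 after quantile normalization), with 5 falls that held, such as Mrpl12 (-1.73 ± 0.19). In fatty acid oxidation 12 of 24 genes fell and 1 rose (7 and 1 after rescaling and after quantile normalization). Hadh (-2.24 ± 0.24) and Acaa2 (-1.81 ± 0.33), 2 enzymes of the mitochondrial spiral, were among the 5 falls that held.

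Glycolysis showed no common direction, with 2 of 15 genes higher and 4 lower (3 and 3 after rescaling, 2 and 4 after quantile normalization). The shares as deposited were near the 10.1% higher and 30% lower of all genes. Of these calls 0 held throughout. Hk2, hexokinase, had 154 and 422.2 TPM in LPS cells, against 78.3 and 111.5 TPM in mock cells (1.44 ± 0.45), and was not called without LPS replicate 2 (0.71, adjusted p = 0.25) or mock replicate 1 (1.19, adjusted p = 0.13). It was 2.16 without LPS replicate 1. Slc2a6, a transporter, rose by 1.57 ± 0.44 and was not called without LPS replicate 1 (adjusted p = 0.11) or mock replicate 2 (adjusted p = 0.083). Ldhb, a lactate dehydrogenase subunit, was lower (-1.64 ± 0.45) but not called without LPS replicate 2 (adjusted p = 0.085), and Pfkfb4, which sets fructose bisphosphate levels, was lower (-1.93 ± 0.48) but not called without LPS replicate 2 (-1.23, adjusted p = 0.081) or after quantile normalization (-1.05, adjusted p = 0.057). Pfkfb4 was -2.63 without LPS replicate 1 and -1.33 at a pseudocount of 5.

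Cholesterol synthesis had the lowest median of all lists, -1.51, with 10 of 13 genes lower and 1 higher (8 and 2 after rescaling, 8 and 1 after quantile normalization) and 7 falls that held throughout. Cyp51, the sterol demethylase, had 11.7 and 23.6 TPM in LPS cells, against 118.9 and 141.4 TPM in mock cells, a log2 fold change of -2.89 ± 0.33. The row Acat3;Acat2, an early thiolase, was at -2.64 ± 0.31, and at -1.96 after quantile normalization. Mvk and Fdps of the mevalonate route were at -1.86 ± 0.31 and -1.85 ± 0.36, and Hmgcs1, which makes its first committed intermediate, at -1.29 ± 0.29. The 1 rise was Npc2 (1.26 ± 0.30), which carries cholesterol out of lysosomes and does not make it.

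Genes of DNA replication and mitosis were lower in 19 of 25 cases and higher in 0, with 15 falls after rescaling and 15 after quantile normalization, 15 that held throughout and a median of -1.46. The replicative helicase subunits Mcm2, Mcm3 and Mcm4 fell by 1.86, 1.94 and 1.96 on the log2 scale, with SEs of 0.23, 0.25 and 0.32. Mcm3 had 24.1 and 18.5 TPM with LPS, against 83.7 and 83.9 TPM with mock. Cdk1, the kinase of entry into mitosis, had 21.2 and 22.3 TPM in LPS cells, against 76.1 and 84.9 TPM in mock cells (-1.84 ± 0.20), and Pcna, the sliding clamp, 257.7 and 178.7 TPM against 620.8 and 487 TPM (-1.35 ± 0.29). In bulk RNA, fewer dividing cells and less of these transcripts per cell cannot be told apart, and the same holds for each group described here. After quantile normalization Mcm2 and Mcm4 were at -1.20 and -1.33. Of 11 histone rows, whose near-identical members may share reads, 0 rose and 3 fell (2 and 1 after rescaling, 0 and 1 after quantile normalization). The falls as deposited were near the 30% of all genes. Hist1h1b had the largest fall among called genes without overlap and with at least 10 TPM in the higher group (0.419 and 11.2 TPM with LPS, against 22.1 and 161.3 TPM with mock, -3.88 ± 1.47). Its adjusted p of 0.045 became 0.09 after rescaling, 0.12 after quantile normalization and 0.083 at a pseudocount of 5, where it was at -2.84. It was not called without LPS replicate 1 (-2.33, adjusted p = 0.31) or mock replicate 2 (-2.47, adjusted p = 0.3), and was at -5.43 without LPS replicate 2 and -5.29 without mock replicate 1.

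Ribosome biogenesis fell in 18 of 25 genes and rose in 0 (11 and 0 after rescaling, 13 and 0 after quantile normalization), and 10 held throughout. Gar1, a protein of the RNPs that modify ribosomal RNA, had 8.29 and 9.26 TPM in LPS cells, against 75.2 and 43.3 TPM in mock cells (-2.57 ± 0.27, and -1.96 after quantile normalization). Fbl, the ribosomal RNA methyltransferase, had 79.9 and 91.3 TPM against 284.6 and 258.8 TPM (-1.66 ± 0.21). Of 24 tRNA synthetases 10 fell and 2 rose (3 and 2 after rescaling and after quantile normalization). The 3 falls after rescaling were close to the 12.8% of all genes. Iars and Vars fell by 2.14 and 2.01 on the log2 scale (SE 0.36 and 0.31) and held throughout, at -1.31 and -1.32 after quantile normalization, while Wars, known as inducible by interferon, rose by 1.19 ± 0.34 but was not called without LPS replicate 1 (adjusted p = 0.077) or mock replicate 2 (adjusted p = 0.087). The count of cytosolic ribosomal proteins depended on the scale. As deposited 38 of 71 were lower and 1 higher, after quantile normalization 25 were lower and 1 higher, and after rescaling 0 were lower and 2 higher. Rps27l, a relative of a ribosomal protein that is known as a target of p53, was the rise that held throughout (0.78 ± 0.17).

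Of 30 antioxidant and iron genes 5 were higher and 9 lower (8 and 5 after rescaling, 5 and 7 after quantile normalization), the falls as deposited being at the 30% of all genes. Sod2, the mitochondrial superoxide dismutase and a classical NF-kB target, had 973 and 974.6 TPM in LPS cells, against 246.7 and 254.4 TPM in mock cells, a log2 fold change of 1.95 ± 0.15. Sqstm1, a receptor of selective autophagy, rose by 1.41 ± 0.24 and Prdx1, a peroxidase, by 1.04 ± 0.23. Gpx1, a glutathione peroxidase, had 1760 and 1220 TPM with LPS, against 4407 and 3528 TPM with mock (-1.43 ± 0.33), and Blvra, biliverdin reductase, was at -1.52 ± 0.29. Ferritin, the iron store, was among the most abundant transcripts. Its heavy chain Fth1 had 41259 and 13178 TPM with LPS, against 18179 and 9390 TPM with mock, with overlapping pairs and no call (adjusted p = 0.29). Its light chain Ftl1 had 26588 and 25206 TPM with LPS, against 37664 and 33547 TPM with mock, and its fall (-0.46 ± 0.15) was not called after rescaling (adjusted p = 0.93), without LPS replicate 2 (adjusted p = 0.087) or without mock replicate 1 (adjusted p = 0.14).

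Cell death genes rose in 7 of 25 cases and fell in 5 (13 and 4 after rescaling, 10 and 2 after quantile normalization), and 5 rises and 1 fall held throughout. Over all genes 10.1% rose and 30% fell as deposited. Mlkl, the executioner of necroptosis, had 166.4 and 181.8 TPM in LPS cells, against 23.2 and 25.3 TPM in mock cells (2.79 ± 0.24). Casp1, the protease that cleaves interleukin 1 beta, had 264.6 and 284.7 TPM with LPS, against 57.2 and 62.2 TPM with mock (2.18 ± 0.23). The inflammasome sensor Nlrp3 rose by 0.98 ± 0.23 and the death receptor Fas by 1.30 ± 0.24. Pycard, the adaptor between Nlrp3 and Casp1, went the other way, with 102.5 and 77.7 TPM in LPS cells, against 298.3 and 259.2 TPM in mock cells (-1.63 ± 0.30).

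Actin regulators and adhesion genes were mixed, with 6 of 53 higher and 9 lower (14 and 4 after rescaling, 6 and 7 after quantile normalization). As deposited the rises were near the 10.1% of all genes, and the falls at a smaller share than the 30%. Of the calls 3 rises and 4 falls held throughout. Itga5, the fibronectin receptor subunit, rose by 1.95 ± 0.29. Coro1a, an actin-binding protein of leukocytes, had 91.8 and 129.2 TPM in LPS cells, against 711.6 and 610.3 TPM in mock cells (-2.59 ± 0.24), and Ezr, which links actin to the membrane, 26.01 and 18.9 TPM against 138.1 and 120.1 TPM (-2.49 ± 0.19). Lysosomal genes included 7 rises and 10 falls among 47, the falls at a smaller share than the 30% of all genes. After rescaling 10 were higher and 1 lower, and after quantile normalization 5 were higher and 9 lower. Of the calls 2 rises and 1 fall held throughout, the fall being that of the mannosidase Manba (-2.13 ± 0.39, and -1.52 after quantile normalization). Of 39 chaperone genes 1 rose and 8 fell (3 and 4 after rescaling, 2 and 7 after quantile normalization). As deposited both were at smaller shares than over all genes. Fkbp4, a co-chaperone of Hsp90, was at -1.84 ± 0.34, and at -1.24 after quantile normalization.

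Several of the 12 largest falls belonged to no list. Dok2, an adaptor that damps receptor signalling in myeloid cells, had 49.2 and 53.6 TPM in LPS cells, against 445.9 and 406.4 TPM in mock cells, a log2 fold change of -3.03 ± 0.19 with an adjusted p of 3.8e-09. Srm, which makes the polyamine spermidine, had 9.39 and 4.43 TPM with LPS, against 88.3 and 63.6 TPM with mock (-3.34 ± 0.67). Timm8a1, a chaperone of mitochondrial import, had 17.1 and 6.23 TPM with LPS, against 110.5 and 96.6 TPM with mock (-3.19 ± 0.34). The calls of all 3 held throughout. Add3, of the membrane skeleton, had 7.72 and 4.87 TPM with LPS, against 56.1 and 59.1 TPM with mock (-3.03 ± 0.24). Acy1, an enzyme that frees amino acids, was at -3.04 ± 0.48, the translation regulator Bzw2 at -3.01 ± 0.49, and the row mKIAA0050;BC064116;Acap1;Centb1, named in part for an Arf GTPase-activating protein, at -3.45 ± 0.39. After quantile normalization Srm, Acy1, Add3 and Bzw2 were at -2.67, -2.21, -2.33 and -2.41. Without LPS replicate 1 Timm8a1, Acy1 and the row with Acap1 were at -3.85, -3.70 and -2.73, and without LPS replicate 2 at -2.52, -2.38 and -4.17. Endog, a mitochondrial nuclease of the cell death list, was listed at 4.48 and 0 TPM with LPS, against 29.1 and 16.01 TPM with mock, and was not called without LPS replicate 2 (-2.04, adjusted p = 0.052). It was -4.50 without LPS replicate 1 and -1.96 at a pseudocount of 5.

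By abundance, the LPS cells were led by Tmsb4x, the actin-sequestering thymosin, at 45500 and 41799 TPM, against 40105 and 45043 TPM in mock cells, which overlapped; it was not called as deposited and was called higher after rescaling (0.47, adjusted p = 0.023). The row Mir147;AA467197 had the second largest gain in TPM, with 22478 and 29245 TPM in LPS cells, against 5066 and 5085 TPM in mock cells (2.34 ± 0.20); this row joins a microRNA name to a protein-coding name, and the value cannot be given to either alone. Lyz2, myeloid lysozyme, had 26781 and 7298 TPM with LPS, against 31959 and 18953 TPM with mock, and was not called (adjusted p = 0.44). S100a4, a calcium-binding protein, fell to 2056 and 2710 TPM with LPS, against 4429 and 6096 TPM with mock (-1.14 ± 0.23). Psap, the precursor of lysosomal saposins, had 11177 and 10775 TPM with LPS, against 15701 and 14813 TPM with mock, a fall (-0.47 ± 0.18) that was not called after rescaling (adjusted p = 0.89) or without any 1 of the 4 libraries (adjusted p of 0.092, 0.13, 0.17 and 0.094).

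Defining markers were checked over the 4 libraries. Of 22 dendritic cell and macrophage markers 13 were listed and 0 were called either way, beside 40.1% of all genes. After rescaling 2 were called higher, Fcer1g (0.54 as deposited, adjusted p = 0.015 after rescaling) and Ptprc (0.13 as deposited, adjusted p = 0.02 after rescaling), and after quantile normalization 0. The 13 markers summed to 68941 and 32641 TPM in LPS cells, against 67776 and 47425 TPM in mock cells. Of 17 neutrophil granule markers 7 were listed and summed to 2333 and 1622 TPM with LPS, against 7193 and 2492 TPM with mock, and S100a9 was the 1 called, at -1.46 ± 0.55 (adjusted p of 0.17 after rescaling and 0.053 after quantile normalization). S100a9 was also not called without LPS replicate 1, LPS replicate 2 or mock replicate 1 (adjusted p of 0.13, 0.097 and 0.33), and was at -0.89 without mock replicate 1. The part of granulocytes in the falls was not tested. The lists for T and NK cells, B cells, and fibroblasts and endothelium had 0 listed genes.

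The 9 h response was set against those at the neighbouring times. With the same fit, 353 genes were higher (11.2%) and 945 lower (30%) at 6 h, and 315 higher (10%) and 843 lower (26.8%) at 12 h. In tests of the difference itself, limma called 0 genes for the 9 h effect minus the 6 h effect and 0 for the 9 h effect minus the 12 h effect. At an unadjusted p under 0.05 there were 155 genes (4.93% of those tested) and 96 genes (3.05%), and the lowest adjusted p were 0.14 and 0.5. Differences of single times were hard to find here. In simulated data with the same spread in every group and 200 changed genes, 50% and 54.5% of 4-fold differences between 2 times were recovered. Of 4-fold effects at 9 h itself 81.8% were recovered. The simulated libraries were drawn independently and held far fewer changed genes than were called here, so these shares need not hold for the data.

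The values at 6 h, 9 h and 12 h are therefore given side by side as descriptions. The interferon list had medians of 3.55, 3.28 and 3.23, and the GTPases of 4.65, 4.18 and 3.75. Rsad2 was at 9.37, 7.99 and 8.21, and Ccl5 at 5.31, 4.97 and 6.11. Mrc1 stood at -1.49, -2.38 and -3.62, and Clec10a at -2.85, -3.77 and -4.66. Fdps was at -0.45, -1.85 and -1.90, while the helicase subunit Mcm3 was at -1.92, -1.94 and -1.71. The glycolysis list had medians of -0.35, -0.26 and 0.58, and some of its genes were called for 9 h minus 12 h with a replicate block, as given below. For mock cells at 9 h against unstimulated cells at 0 h limma called 0 genes, 48 had an unadjusted p under 0.05, and the lowest adjusted p was 0.32. LPS cells at 9 h against the same 0 h libraries gave 1326 calls (42.1%), 303 higher (9.63%) and 1023 lower (32.5%), and both comparisons share the 2 libraries of 0 h.

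**Figure D4:**
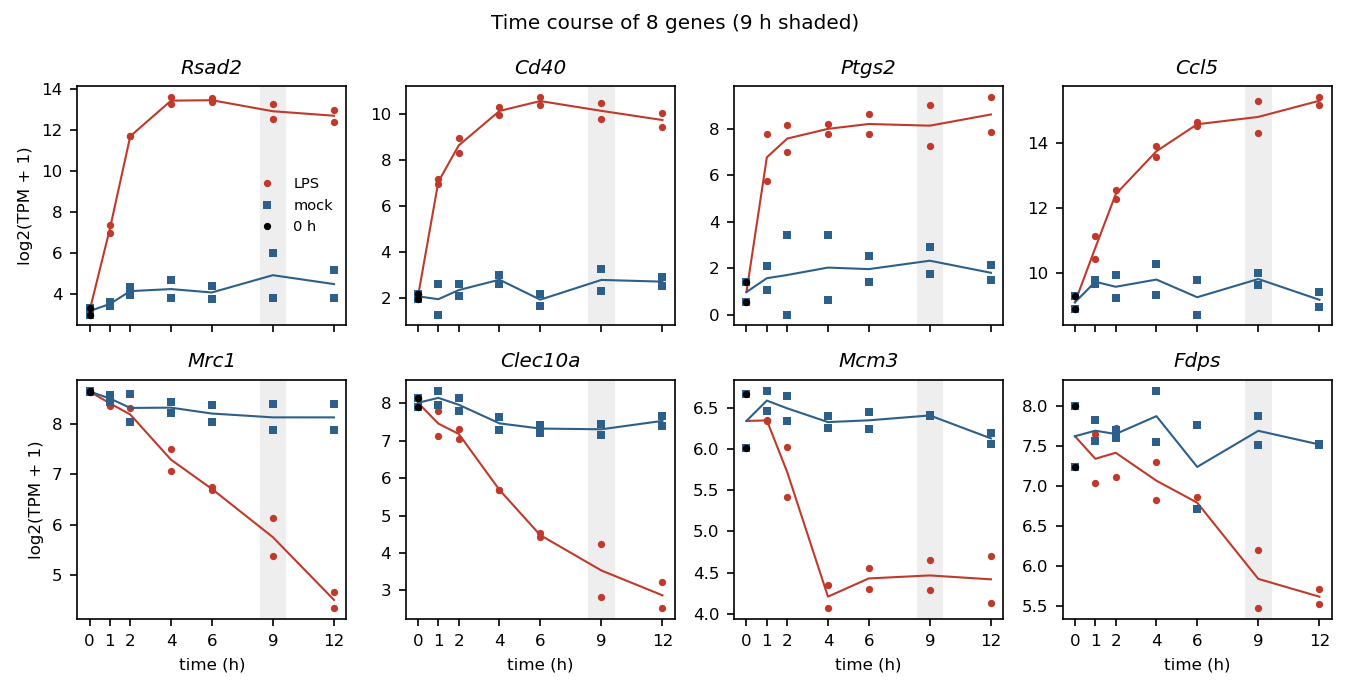
Values of 8 genes on the log2(TPM + 1) scale (vertical axis) against hours of stimulation (horizontal axis), with red circles for LPS, blue squares for mock and black circles for 0 h. Each point is 1 library, lines join the means, and 9 h is shaded. All 8 genes were among those called at 9 h, where their LPS and mock points are apart.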

How the data were processed

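RNA was measured in 26 libraries, 4 of them of 9 h, by poly(A) selection and strand-specific sequencing, per the labels' protocols. Per the submitters' processing notes, the authors used Bowtie 0.12.7, RSEM 1.2.3 and mm9 as the mouse build, and they deposited TPM values. How the 3147 listed genes were selected is not given in the sources used here. TPM keeps no depth, so no counting interval can be given. Precision comes only from differences between the 2 libraries of a group, pooled over all groups of the fit. The SE of a gene was therefore the same at 6 h, 9 h and 12 h. The table lists 363 rows with several names joined, which were kept as given.

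From the deposited TPM, log2(TPM + 1) was modelled in R 4.3.3 by limma 3.58.1 with its variance trend, a mean for each of 13 groups and 13 residual degrees of freedom. The filter, 1 TPM or more in 2 libraries, removed 0 of 3147 genes. P-values were adjusted by Benjamini-Hochberg over them at a threshold of 0.05. Python 3.11.15 with matplotlib 3.10.9 drew the figures. Genes were matched to RefSeq promoters by name.

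The comparison, the gene lists and the rule for naming genes were chosen with earlier results of these data known. The rule names the 12 largest called rises and falls without overlap and with at least 10 TPM in the higher group, the 8 most abundant genes, the 5 largest gains and losses in TPM, and list members. Requiring a call to hold under 6 settings at once was chosen after seeing the data. On simulated data of this layout with 200 changed genes, 13.4%, 35.8% and 81.8% of 1.5-fold, 2-fold and 4-fold effects at 9 h were recovered. Of the calls 11.2% were false. Both depend on the number of changed genes, so they need not hold for the data. The alternatives were other pseudocounts, filters and scalings, a replicate term, fewer libraries and a 2-fold minimum. Ribosome footprints of resting cells were not used here. A few genes that the rule names are not reported here.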

Additional observations from a re-analysis of the deposited data

How the results depend on the processing

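The 318 genes higher became 508 after median-ratio rescaling, 149 with only the libraries of 9 h and 246 to 286 without 1 library of 9 h. The 944 genes lower became 404 after rescaling, 518 after quantile normalization, 262 with only the libraries of 9 h, 599 at a minimum of 2-fold and 598 to 847 without 1 library, the lowest without mock replicate 1. The fit to the libraries of 9 h has far fewer residual degrees of freedom and takes its spread from those libraries alone. In it 32 of the 143 named genes lost their call. Among them were Rps27l and Ndufb10 (adjusted p of 0.11 and 0.075 by limma), which are described above as holding throughout. The samples share replicate numbers, but what equal numbers have in common is not stated, and they were not treated as pairs. The differences between replicates had a correlation across genes of 0.685 between LPS and mock at 9 h. With the replicate block 428 genes were higher and 1364 lower. It called 2 genes for 9 h minus 6 h and 8 for 9 h minus 12 h, among those 8 Mrc1 (adjusted p = 0.033). Also among them were Gpi1, Ldha, Pgam1 and Tpi1 of the glycolysis list, whose 9 h effects lay below those of 12 h. Their log2 differences were -1.15, -0.95, -0.90 and -1.31 (adjusted p of 0.011, 0.037, 0.042 and 0.026). The block also called Cd14, Rel, Fth1, Fcer1g and Ccl6 (adjusted p of 3.7e-05, 0.00037, 0.032, 0.037 and 0.018), which were not called without it. With rescaling and the replicate block together, a setting chosen after seeing the data, 735 were higher and 667 lower, and 2 and 5 were called for the differences between times. Without 1 library those differences had 0 to 2 genes (6 h) and 0 to 1 (12 h). Of 143 named genes under 13 settings each, 1741 of 1859 values kept direction and side of the threshold, 87 lost and 23 gained a call, and 8 changed sign. Those 8 were of genes not called. Without 1 library Rela ranged from -0.06 to 0.37, H2-Aa from -0.13 to 0.35, Cd74 from -0.26 to 0.90, Tmsb4x from -0.05 to 0.12 and Lyz2 from -1.75 to 0.12, and Tmsb4x was 0.00 after quantile normalization. The cause was not tested. Unknown depth leaves weak genes without a counting error.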

Other observations

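Length and base composition were compared with the 9 h change as descriptions. A transcript length and GC content from a later annotation were matched by name for 2956 of the 3147 genes (93.9%). The median transcript was 2356 bases long for genes called higher, 1628 bases for genes called lower and 2062 bases for genes not called, and the median GC content was 49.6%, 52.1% and 50%. Across these genes, which are not independent replicates and share the same 4 libraries, Spearman's rho of the log2 fold change was 0.14 with length and -0.16 with GC content. The part of length and GC content in the counts of falls was not tested.

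Car2, carbonic anhydrase and the 1 listed gene of the erythroid marker list, had 155 and 116.7 TPM in LPS cells, against 18.9 and 18.6 TPM in mock cells, a log2 fold change of 2.78. Prg2, the 1 listed gene of the mast cell and basophil list, had 99.1 and 218.8 TPM with LPS, against 262.2 and 156.7 TPM with mock, and was not called.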
